A study of Mus musculus with 24 samples.

Results

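Dusp6, Dusp4, Dusp1, Spry1, Spry2, Spry4, Spred1 and Spred2, the dual specificity phosphatases, Sproutys and Spreds that curb ERK signalling, were followed across mouse cerebellum, medulloblastoma and medulloblastoma cell cultures. They were chosen by gene name with earlier results of these data known, and their probe sets were found by exact symbol in the array annotation. Of these 8 genes, 7 had a probe set with their symbol alone, 12 probe sets in all, among 12394 genes and 22690 probe sets. Dusp4 was not analysed here. For a gene with several probe sets, the 1 with the highest mean over the 24 arrays is reported, as log2 of the intensity plus 16.

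The series set SMB cells, lines grown from medulloblastomas that arose in Ptch+/- mice, against tumors, normal cerebellum and their own transformed or growth factor treated forms. Ptch1 restrains Hedgehog signalling, and mice with a mutant copy develop this cerebellar tumor. RAS transformed cells were measured on 7 arrays, 3 of line SMB21, 2 of SMB55 and 2 of SMB56; the labels do not say which RAS gene was used or how it was introduced. The growth factor (GF) cells had 1 array per line, 3 in all, after more than 3 weeks with EGF at 20 ng/mL, bFGF at 20 ng/mL and 0.2% heparin. Parental cells, neurospheres grown without these factors, had 8 arrays, 4 of SMB21, 2 of SMB55 and 2 of SMB56. All 18 cultures carry the label Ptch1 mutant, with age given as adult, so the Ptch1 lesion is shared by the transformed, treated and parental cells. The tissues were 3 primary tumors (MB) with a mutant Ptch1 from adult mice, 1 wild type adult cerebellum and 2 wild type cerebella of postnatal day 6 (P6). The titles call the replicates biological, and nothing further says whether they came from separate animals or cultures. Strain is not given.

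Growth factors bind receptor tyrosine kinases, which load RAS with GTP, and RAS then drives the RAF, MEK and ERK kinases. ERK-induced transcription switches on inhibitors of the same route at several depths. Dusp phosphatases remove phosphate from ERK and related kinases, Sproutys interfere between receptor and RAF, and Spreds bring the RAS-inactivating protein neurofibromin to the membrane. In the developing cerebellum FGF signalling opposes the growth of granule neuron precursors under Hedgehog, the cells from which this tumor arises.

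Array medians lay between 188.8 and 245.1 intensity units, and the lowest log2 level on any array was 4.70, against a median of 8.35 over all genes. The labelled sources carried their own markers: the summed intensity of 4 Purkinje cell genes was 501 to 2012 in primary MB, 81042 in adult cerebellum and 24408 to 25071 in P6 cerebellum. Of 8 microglia genes, 6 (Tyrobp, Ctss, C1qa, C1qb, C1qc and Aif1) stayed below a log2 level of 6 on every culture array. Differences below are log2 differences fitted with limma, and a gene is called changed at a Benjamini-Hochberg adjusted p under 0.05 over all 12394 genes.

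All measured members were higher with RAS in the cultures. The stretch before the start of transcription was therefore read for 6 of them from the RefSeq promoter table of mouse build GRCm38.p6. Spry4 was not searched. Letters for binding motifs of ERK-responsive factors were searched on both strands, from 250 bases before to 50 bases after the start. The general promoter elements TATAAA and GGGCGG were searched in the same way. The 250 bases before the start are printed for the member with the largest RAS difference, the member with the largest GF difference and the member that differed least under GF. The regions are chr10:99262981-99263230 on the plus strand for Dusp6, chr14:105896820-105897069 on the minus strand for Spry2 and chr17:26508473-26508722 on the minus strand for Dusp1. Capitals mark a cyclic AMP response element, TGACGTCA.
Dusp6: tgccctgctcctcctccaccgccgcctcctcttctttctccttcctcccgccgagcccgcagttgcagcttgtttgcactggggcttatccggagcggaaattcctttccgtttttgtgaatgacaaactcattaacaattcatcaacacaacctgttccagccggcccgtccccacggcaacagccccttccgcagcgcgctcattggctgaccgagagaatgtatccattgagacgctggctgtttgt
Spry2: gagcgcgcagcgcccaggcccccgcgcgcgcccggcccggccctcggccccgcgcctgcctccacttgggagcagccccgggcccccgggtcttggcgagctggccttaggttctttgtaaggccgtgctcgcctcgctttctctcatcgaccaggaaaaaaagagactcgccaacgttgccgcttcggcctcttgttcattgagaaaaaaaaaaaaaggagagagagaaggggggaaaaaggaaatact
Dusp1: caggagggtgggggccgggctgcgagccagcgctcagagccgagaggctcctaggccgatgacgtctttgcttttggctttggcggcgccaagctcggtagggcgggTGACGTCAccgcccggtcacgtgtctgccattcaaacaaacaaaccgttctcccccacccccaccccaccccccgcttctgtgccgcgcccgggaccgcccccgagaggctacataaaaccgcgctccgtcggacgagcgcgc
Dusp1 was the 1 member of 6 with TGACGTCA, with its first base at position -143 from the start, and 1.79% of 32851 promoters hold it. The ETS core CCGGAA lay in the Spry2 window alone, 34 bases after the start, and is found in 14.9% of promoters. None of the 6 windows held the AP-1 letters TGANTCA (7.81% of promoters), the CArG box of the serum response element (1.63%) or TATAAA (13.6%). The GC box GGGCGG was in 4 of 6, against 35.7% of all promoters. The shorter TGACG, which lies inside TGACGTCA, was in the Dusp1 and Spred2 windows and in 20.8% of promoters. The Dusp6 window held none of the 7 motifs. A match describes the letters alone, and a missing match says only that they are not in this window.

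RAS transformed cells had higher levels of all 7 measured members than parental cells. The fold changes ran from 1.7 for Spred2 to 6.86 for Dusp6. For each of the 7, every RAS array of a line lay above every parental array of that line, in all 3 lines; 6.75% of all genes did so. The limma fit called 7 of 7 higher, against 14.1% of all genes higher and 17.9% lower (32.1% in all). The median log2 difference of the members was 1.33, against -0.05 over all genes. GF cells had higher levels of 5 of 7 members (Spry2, Spred1, Spry1, Dusp6 and Spry4), against 3.99% of all genes higher and 4.96% lower (8.95% in all), with a median of 1.09 against -0.01. The GF array lay above every parental array of its line in all 3 lines for 6 of 7 members, Dusp1 being the exception, and for 8.09% of all genes. The RAS and the GF comparison share the parental arrays, so their values are given side by side and not as independent results.

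**Figure D1:**
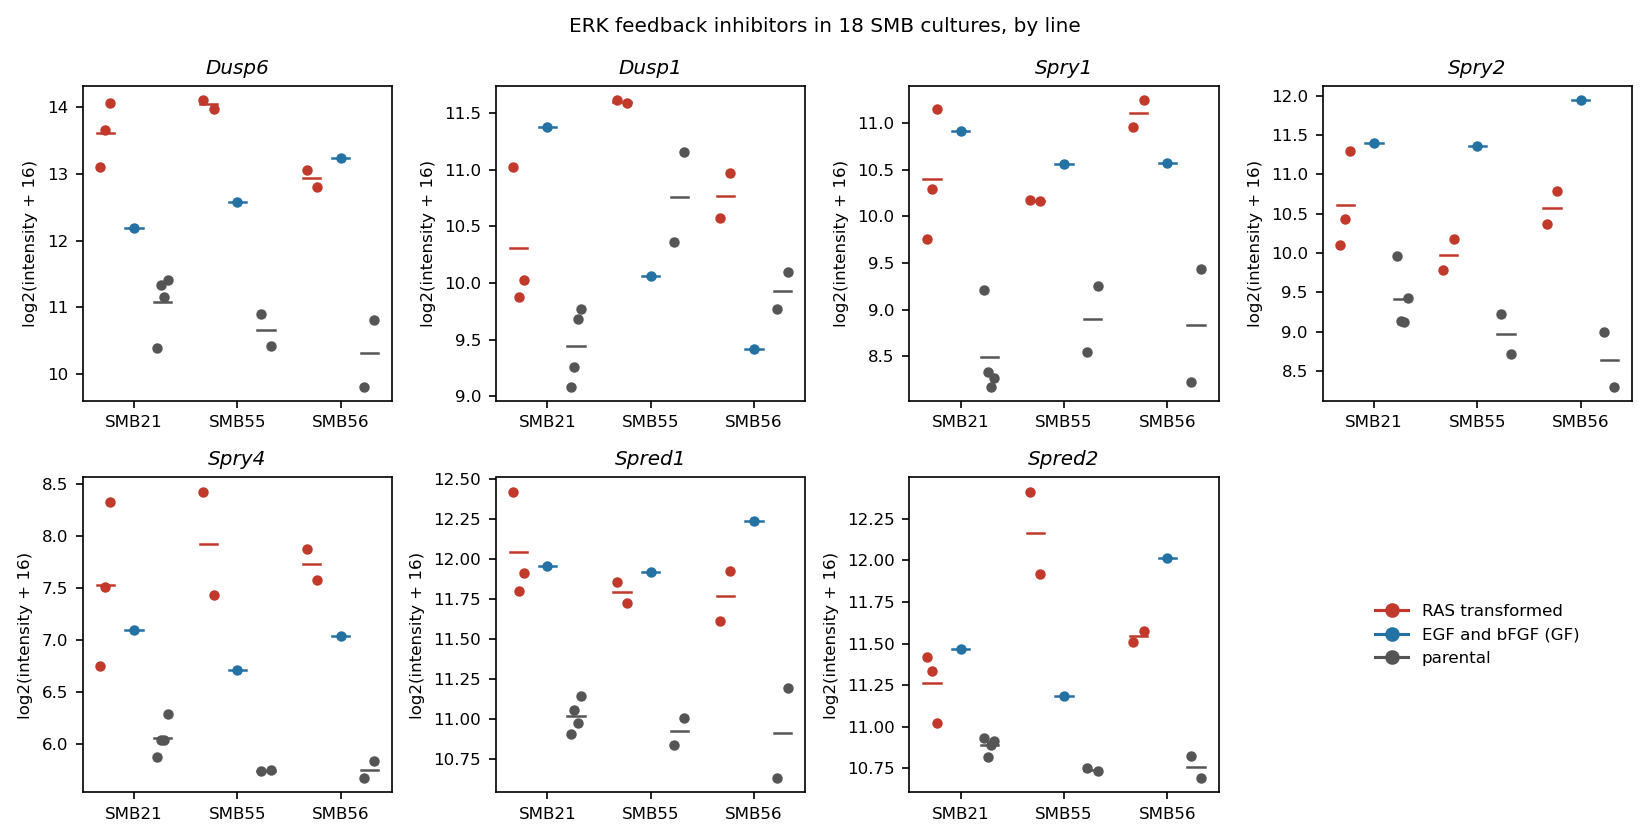
Level of each measured member, log2(intensity + 16), on the 18 culture arrays, with RAS, GF and parental arrays side by side within each SMB line and a bar at the group mean. RAS points lie above the parental points of their line in every panel, and GF points do so in every panel but Dusp1, where the SMB55 and SMB56 GF arrays stand at 10.06 and 9.42.

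**Figure D2:**
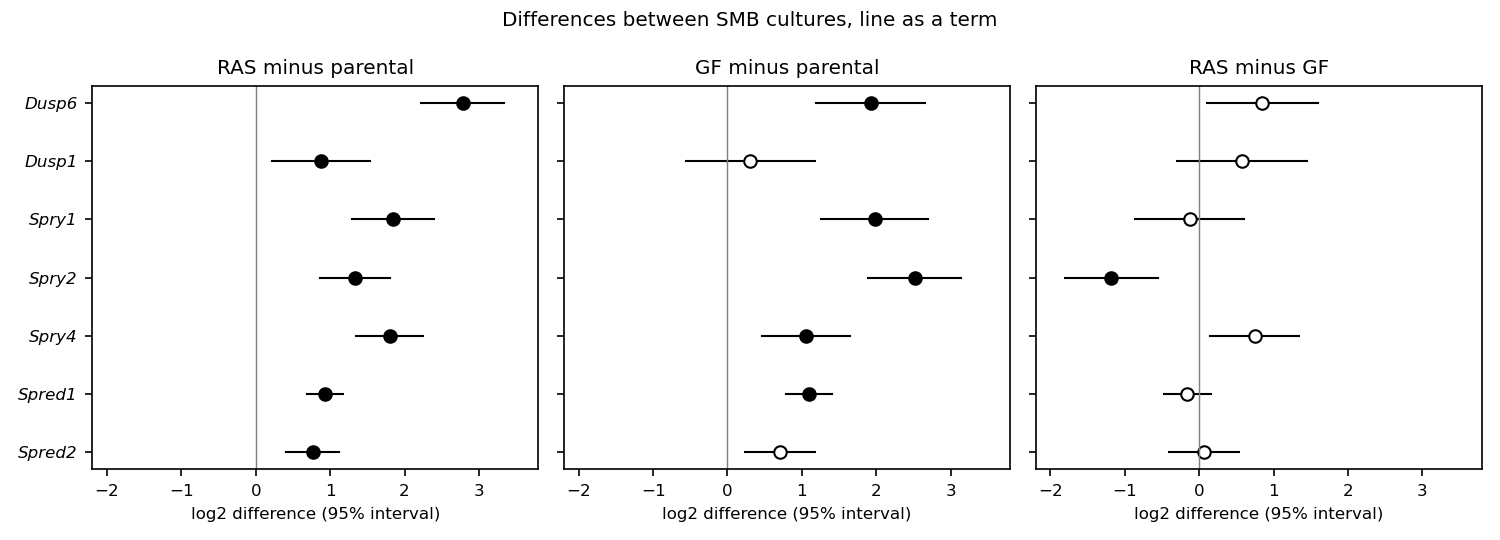
Log2 difference of each member with its 95% interval from the limma fit with line as a term, for RAS minus parental, GF minus parental and RAS minus GF. Filled points have an adjusted p under 0.05: 7 of 7, 5 of 7 and 1 of 7.

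Among the phosphatases, Dusp6, which is cytoplasmic and prefers ERK, showed the largest RAS difference of the members. Its log2 level was 13.66, 14.06 and 13.10 in SMB21 RAS cells, 12.19 in SMB21 GF cells and 10.39, 11.33, 11.15 and 11.41 in SMB21 parental cells. In SMB55 it was 14.10 and 13.98 with RAS, 12.57 with GF and 10.90 and 10.41 in parental cells. In SMB56 it was 13.06 and 12.81 with RAS, 13.23 with GF and 9.81 and 10.80 in parental cells. No treated array of any line overlapped a parental one, and in SMB56 alone the GF array stood above both RAS arrays. The RAS difference was 2.78 (SE 0.26, 95% interval 2.22 to 3.34, adjusted p = 4.39e-06), which ranked 72 among 12394 genes by p. The GF difference was 1.93 (SE 0.34, adjusted p = 0.00385, 3.8-fold). Without line SMB56 the GF value was 1.44 (adjusted p = 0.0518).

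Dusp1, a nuclear phosphatase of stress kinases and ERK and an early response gene, behaved less evenly. Its log2 level was 9.88, 10.03 and 11.02 in SMB21 RAS cells, 11.37 in SMB21 GF cells and 9.09, 9.26, 9.68 and 9.77 in SMB21 parental cells. In SMB55 it was 11.61 and 11.59 with RAS, 10.06 with GF and 10.36 and 11.16 in parental cells. In SMB56 it was 10.57 and 10.97 with RAS, 9.42 with GF and 9.77 and 10.10 in parental cells. RAS arrays lay above the parental arrays of their line, whereas the GF array was above the parental ones in SMB21 and below them in SMB55 and SMB56. The RAS difference of 0.88 (SE 0.31, adjusted p = 0.0408, 1.84-fold) was the weakest call of the 7. It was called in 16 of 32 alternatives. It was lost without line SMB55 (adjusted p = 0.11), without line SMB56 (0.115), and when any of SMB21 parental 1 to 4, SMB55 parental 1, SMB56 parental 1, SMB21 RAS 3 or either RAS array of SMB55 or SMB56 was left out (0.0546 to 0.0841). The GF difference was 0.30 (interval -0.56 to 1.17, adjusted p = 0.735), and -0.60 (adjusted p = 0.268) without the SMB21 GF array.

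Of the Sproutys, Spry2, which limits signalling from FGF receptors, had the largest GF difference of the members. Its log2 level was 10.43, 11.30 and 10.10 in SMB21 RAS cells, 11.40 in SMB21 GF cells and 9.97, 9.14, 9.13 and 9.43 in SMB21 parental cells. In SMB55 it was 9.78 and 10.18 with RAS, 11.37 with GF and 9.23 and 8.72 in parental cells. In SMB56 it was 10.36 and 10.79 with RAS, 11.94 with GF and 8.99 and 8.30 in parental cells. In each line the GF array was the highest and the parental arrays the lowest, with no overlap. The GF difference was 2.52 (SE 0.29, interval 1.89 to 3.14, adjusted p = 0.000289, 5.72-fold), which ranked 16 among all genes, and the RAS difference was 1.33 (SE 0.22, adjusted p = 0.000417, 2.52-fold).

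Spry1, an inhibitor of FGF receptor signalling best known from kidney and muscle, ran from 9.76 through a median of 10.29 to 11.25 over the 7 RAS arrays. The GF arrays stood at 10.92, 10.57 and 10.57 in SMB21, SMB55 and SMB56, and the 8 parental arrays ran from 8.17 through 8.43 to 9.43. No treated array reached down to the parental range. The difference was 1.84 with RAS (SE 0.26, adjusted p = 0.000102, 3.59-fold) and 1.98 with GF (SE 0.34, adjusted p = 0.00299, 3.93-fold). Without line SMB21 the GF value was 1.71 (adjusted p = 0.0826).

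Spry4, which acts on RAF activation below the receptors, was dim in this array series. It ran from 6.75 through 7.58 to 8.42 over the RAS arrays, stood at 7.10, 6.71 and 7.03 in the SMB21, SMB55 and SMB56 GF arrays, and ran from 5.67 through 5.85 to 6.29 over the parental arrays. On 5 of the 8 parental arrays Spry4 was below a log2 level of 6, and no detection call was used here, so its differences hold on the log2(intensity + 16) scale, which understates the change of a dim gene, and are not ratios of RNA. The RAS difference was 1.80 (SE 0.21, adjusted p = 2.52e-05) and the GF difference 1.05 (SE 0.27, adjusted p = 0.0276). The GF call of Spry4 was lost with the replicate number as a block (1.02, adjusted p = 0.114), with which 243 rather than 1109 genes were called. It was also lost without the SMB21 GF array (0.98, adjusted p = 0.125), without the SMB56 GF array (0.99, 0.129), without any 1 line (0.0565 to 0.209), and with 64 instead of 16 added to the intensities (0.67, 0.0705).

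Spred1, the first of the Spreds, whose loss of function in humans causes Legius syndrome, ran from 11.61 through 11.85 to 12.42 over the RAS arrays. The GF arrays stood at 11.95, 11.92 and 12.23 in SMB21, SMB55 and SMB56, and the parental arrays ran from 10.63 through 10.99 to 11.20. The treated and parental ranges did not overlap, and the RAS and GF ranges did. The difference was 0.93 with RAS (SE 0.11, interval 0.69 to 1.17, adjusted p = 3.11e-05, 1.91-fold) and 1.09 with GF (SE 0.15, adjusted p = 0.000888, 2.12-fold).

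Spred2, a relative that also binds neurofibromin, was at 11.34, 11.02 and 11.42 in SMB21 RAS cells, 11.47 in SMB21 GF cells and 10.93, 10.82, 10.89 and 10.92 in SMB21 parental cells. In SMB55 it was 12.41 and 11.92 with RAS, 11.18 with GF and 10.75 and 10.73 in parental cells. In SMB56 it was 11.51 and 11.58 with RAS, 12.02 with GF and 10.82 and 10.69 in parental cells. Parental arrays were tightly grouped and below every treated array, while the treated arrays spread over more than 1 log2 unit. The RAS difference was 0.77 (SE 0.17, adjusted p = 0.00267, 1.7-fold). The GF difference of 0.71 (SE 0.22, interval 0.24 to 1.17, adjusted p = 0.0579) did not pass, and was 0.98 (adjusted p = 0.0168) without the SMB55 GF array.

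With only 1 mean per line and treatment, which leaves the 3 lines as the replicates, 5 members remained called with RAS (667 genes in all), Dusp1 (0.85, adjusted p = 0.435) and Spred2 (0.86, adjusted p = 0.151) being lost. With GF 0 members were called then, and 19 genes in all. The 5 members called in the 18-array GF fit had differences of 1.08 to 2.56 there, with adjusted p of 0.0549 to 0.113.

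Some cell type markers moved with the treatments beside these results. Of all genes, 32.1% were called with RAS and 8.95% with GF. The summed intensity of 6 granule neuron precursor genes was 2426 to 12900 on RAS arrays and 4266 to 13689 on GF arrays. On parental arrays it was 14956 to 27459. Of these 6, among them Atoh1 and Barhl1, 5 fell and 0 rose with RAS, and 2 fell and 0 rose with GF. The sum of 6 astrocyte genes was 3930 to 10148 with RAS, 5273 to 8874 with GF and 1472 to 6468 in parental cells, with Aqp4 and Aldh1l1 below a log2 level of 6 on all RAS and GF arrays. Of the 6, 1 was called higher with RAS (Gja1) and 1 with GF (Slc1a3). The sum of 6 endothelial and pericyte genes was 322 to 4447 with RAS, 279 to 1449 with GF and 167 to 283 in parental cells, with Pecam1 and Tek below 6 on all culture arrays. Of these 6, 3 were called higher with RAS (Rgs5, Kdr and Pdgfrb) and 0 lower, and 0 were called with GF. The sum of 8 microglia genes was 248 to 378, 295 to 330 and 253 to 324 on RAS, GF and parental arrays. The part of these shifts in the members' differences was not tested.

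RAS and GF cells were then set against each other. Of 7 members, 1 was called, against 5.7% of all genes higher and 5.45% lower in RAS cells (11.2% in all). Spry2 was lower in RAS than in GF cells, by -1.18 on the log2 scale (SE 0.30, interval -1.81 to -0.55, adjusted p = 0.0213). The call was lost without the SMB55 GF array (-1.16, adjusted p = 0.0899), without the SMB56 GF array (-0.95, 0.115), without line SMB55 (-1.10, 0.165) and without line SMB56 (-1.07, 0.0709). Dusp6 (0.85, interval 0.11 to 1.60, adjusted p = 0.121), Spry4 (0.75, interval 0.15 to 1.34, 0.0918) and Dusp1 (0.57, interval -0.30 to 1.45, 0.376) did not pass. The intervals of Spry1 (-0.86 to 0.60), Spred1 (-0.47 to 0.16) and Spred2 (-0.41 to 0.54) included 0. Without the SMB56 GF array Dusp6 was called higher in RAS cells (1.37, adjusted p = 0.0331), and without the SMB21 GF array Dusp1 was (1.45, adjusted p = 0.00992).

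Within single lines, where the 9 line-by-treatment groups were fitted separately, the fit called 5 of 7 members higher with RAS in SMB21, 4 of 7 in SMB55 and 6 of 7 in SMB56. Of all genes, 9.1% were higher and 10.3% lower in SMB21 (19.4% in all), 10.6% and 10.9% in SMB55 (21.5%), and 6.14% and 5.9% in SMB56 (12%). Dusp6 rose by 2.54 in SMB21 (adjusted p = 0.000272), 3.39 in SMB55 (0.000354) and 2.63 in SMB56 (0.00355), and Spry4 and Spred1 were also called in all 3. In SMB55 the Spred1 call was lost without parental 1 (adjusted p = 0.117), RAS 1 (0.105) or RAS 2 (0.0519). In SMB56 the count of 6 fell to 2 without parental 1 or RAS 1 (Dusp6 and Spry2) and to 1 without RAS 2 (Dusp6). Without those arrays Spry4 had adjusted p of 0.0705 to 0.0893 and Spred1 of 0.0717 to 0.249 in SMB56, and Spred1 was also lost there without SMB21 parental 3 (0.0523). The number of calls over all genes in these lines also moved when arrays were left out. These losses are therefore not shown to be particular to the members. Spry1 and Spry2 were not called in SMB55, at 1.27 (adjusted p = 0.0954) and 1.00 (0.106). Dusp1 differed by 0.86, 0.84 and 0.84 in SMB21, SMB55 and SMB56 and was called in none (adjusted p = 0.0629, 0.15 and 0.182).

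**Figure D3:**
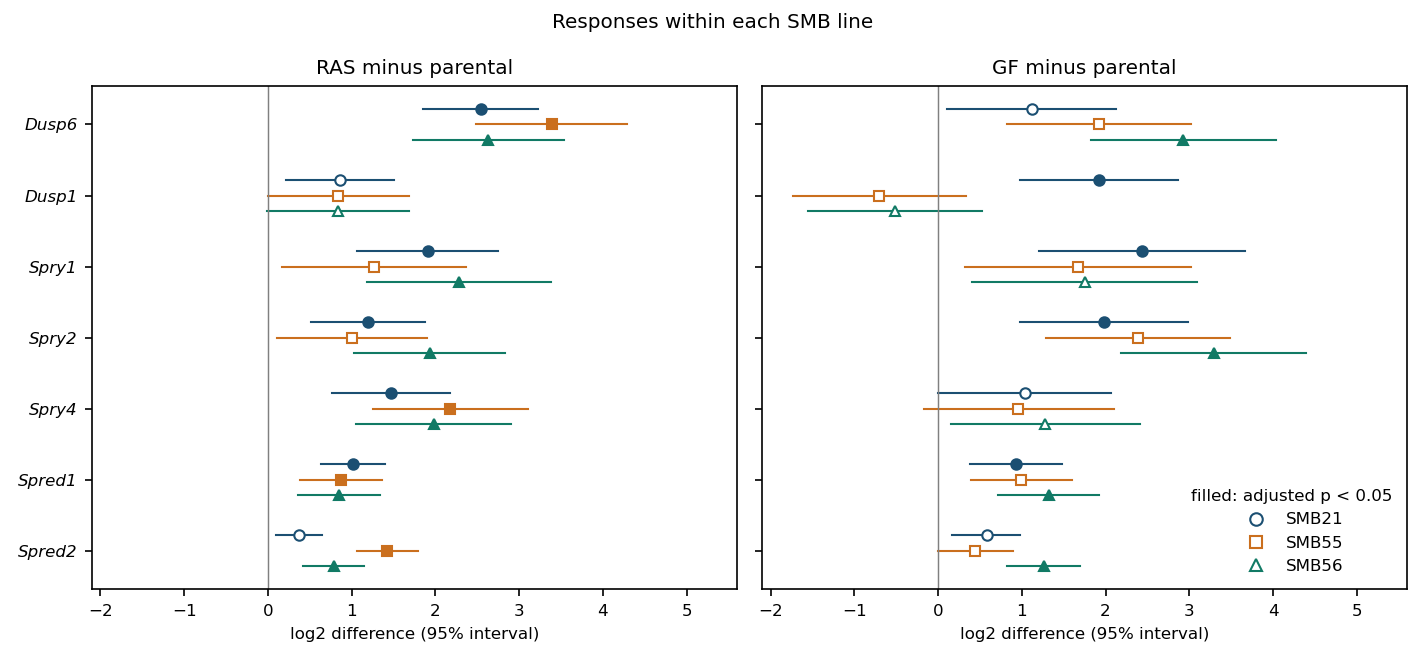
Log2 difference from parental cells within each SMB line, with 95% intervals, for RAS (left) and GF (right); filled points have an adjusted p under 0.05, and each GF value rests on 1 array. The Spred2 RAS points fan out from 0.37 in SMB21 to 1.42 in SMB55, and the Dusp1 GF points stand at 1.92 in SMB21, -0.70 in SMB55 and -0.51 in SMB56.

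Spred2 was the 1 member whose RAS difference varied by line in the F test over lines (F = 12.86, adjusted p = 0.044), against 3.45% of all genes. It rose by 1.42 in SMB55 (SE 0.16) and 0.79 in SMB56 (SE 0.16) and differed by 0.37 in SMB21 (SE 0.13, adjusted p = 0.0614). The SMB55 difference exceeded that of SMB21 by 1.05 (SE 0.21, adjusted p = 0.0268). The F test was past the threshold in 8 of 25 alternatives. Leaving out any of the 3 GF arrays cannot change it, since each is alone in its group. Its adjusted p was 0.0545 to 0.111 without any 1 of 11 arrays: SMB21 parental 1 to 4, SMB55 parental 1 or 2, SMB56 parental 1, SMB21 RAS 2, SMB55 RAS 1, SMB56 RAS 1 or 2.

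With GF, where each line has a lone array assumed to vary like the others, 4 of 7 members were called in SMB21, 0 of 7 in SMB55 and 4 of 7 in SMB56. Of all genes, 4.03% were higher and 4.18% lower in SMB21 (8.21% in all), 0.484% and 0.202% in SMB55 (0.686%), and 3.18% and 2.25% in SMB56 (5.43%). In SMB55 the largest member difference was that of Spry2, 2.39 (adjusted p = 0.067). Dusp1 rose by 1.92 in SMB21 (SE 0.43, adjusted p = 0.0204) and stood at -0.70 in SMB55 and -0.51 in SMB56. The test of that difference between lines gave F = 10.90 with an adjusted p of 0.0987, and 0 of 7 members passed, against 1.4% of all genes. Among parental cells 0 of 7 members varied by line in the F test, against 5.08% of all genes. In the pairwise contrast Dusp1 was higher in SMB55 than in SMB21 parental cells by 1.31 (SE 0.33, adjusted p = 0.0427).

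In tissue, primary MB against P6 cerebellum called 1 of 7 members, Spred2, against 4.3% of all genes higher and 6.68% lower (11% in all). Spred2 had a log2 level of 11.79, 11.29 and 11.71 in primary MB, against 10.47 and 10.34 in P6 cerebellum, with no overlap. The difference was 1.19 (SE 0.16, interval 0.81 to 1.57, adjusted p = 0.00551, 2.28-fold), and without P6 replicate 2 its adjusted p was 0.0683. Dusp6 stood at 11.28, 10.82 and 10.82 in primary MB, against 11.02 and 11.09 in P6 cerebellum, so that the tumor range enclosed that of the cerebella. Its difference was -0.08 (interval -0.65 to 0.49). The 5 others differed by -0.47 (Spry1) to 0.34 (Dusp1), with adjusted p of 0.206 to 0.9. In whole tissue, fewer cells of a type and less RNA per cell cannot be told apart. The summed microglia genes were 13851 to 23577 in primary MB, against 5374 to 7177 in P6 cerebellum, and the summed astrocyte genes 2292 to 2807, against 24355 to 26066; the part of these cells in the Spred2 difference was not tested. In cultures, where 6 of 8 microglia genes stayed below a log2 level of 6, Spred2 ran from 10.69 to 10.93 on parental arrays. It ran from 11.02 to 12.41 on RAS arrays and stood at 11.47, 11.18 and 12.02 on the SMB21, SMB55 and SMB56 GF arrays. These culture levels do not test what microglia add in tissue.

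**Figure D4:**
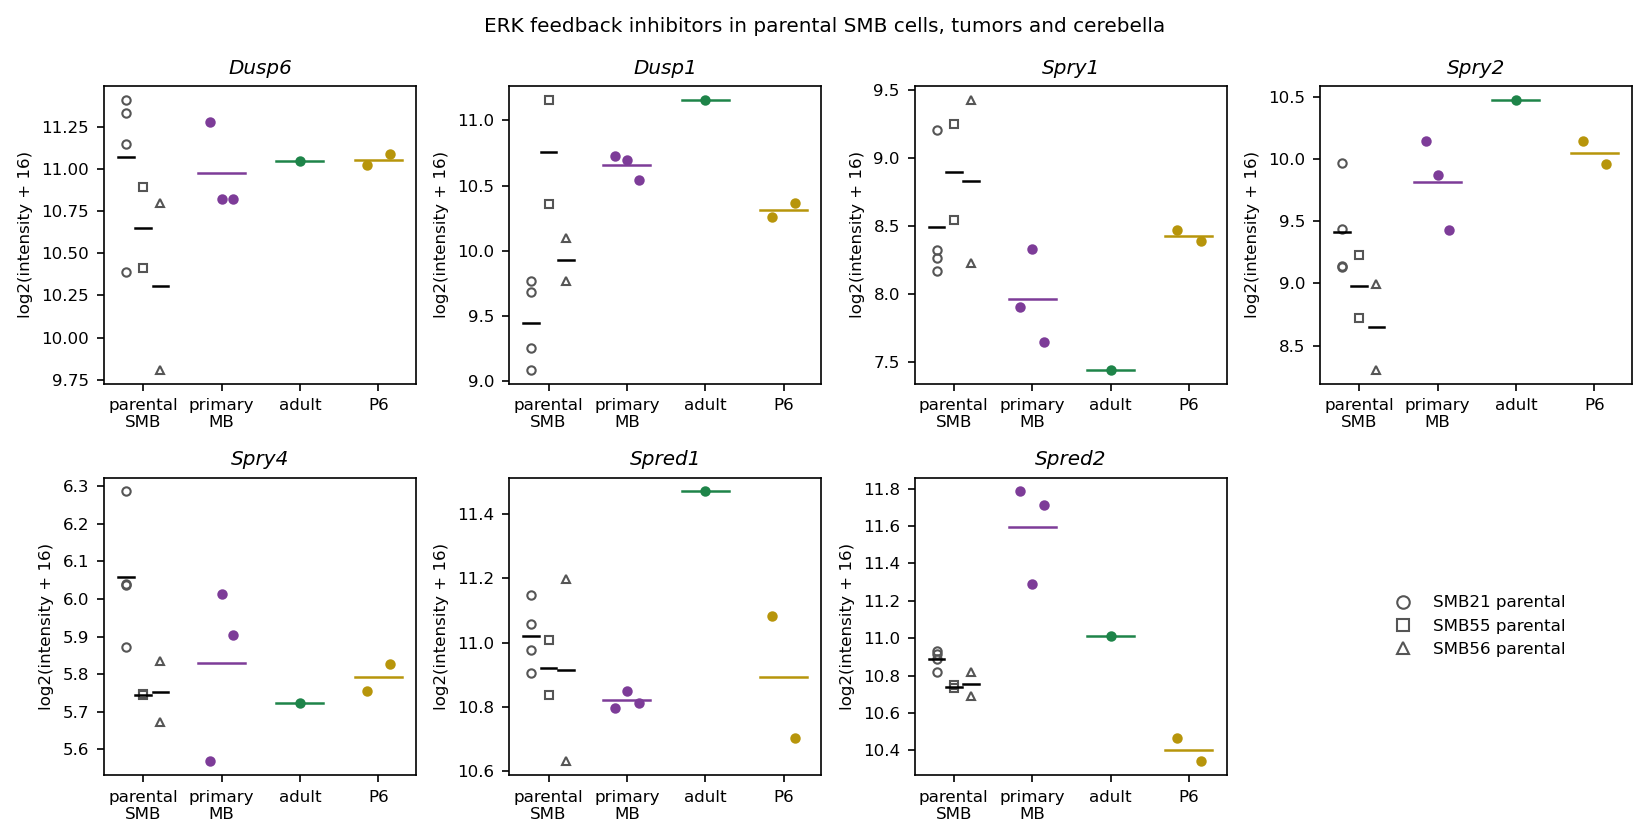
Level of each measured member, log2(intensity + 16), in parental SMB cells (by line, bar at the line mean), 3 primary MB, 1 adult cerebellum and 2 P6 cerebella, each panel on its own scale. Spred2 is highest in primary MB (11.29 to 11.79), and Spry4 lies between 5.57 and 6.29 throughout.

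Against the adult cerebellum, a single array assumed to vary like the other groups, 1 of 7 members was called, while 15.2% of all genes were higher and 15.7% lower (30.9% in all). Spred1 was at 10.80, 10.85 and 10.81 in primary MB, against 11.47 in adult cerebellum, a difference of -0.65 (SE 0.16, adjusted p = 0.0204). This call was lost without SMB56 parental replicate 2, an array that enters through the shared estimate of spread (adjusted p = 0.0544), and with arrays centred on their median (-0.50, 0.0959). Adult against P6 cerebellum called 0 of 7, against 8.85% of all genes higher and 10.3% lower (19.2% in all). The nearest were Spred1, 11.47 in adult, against 11.08 and 10.70 in P6 cerebellum (0.58, adjusted p = 0.0542), and Spry1, 7.44 in adult, against 8.47 and 8.39 in P6 cerebellum (-0.99, adjusted p = 0.0547).

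Parental SMB cells, entered as 1 mean per line, were set against the tumors. Of 7 members 2 were called, against 12.4% of all genes higher and 8.19% lower (20.6% in all). Spred2 was lower in parental SMB cells, with line means of 10.89, 10.74 and 10.76 in SMB21, SMB55 and SMB56, against 11.79, 11.29 and 11.71 in primary MB. No line mean reached the tumor range, and the difference was -0.80 (SE 0.14, adjusted p = 0.0115), called in 23 of 23 alternatives. Spry1 was higher, with line means of 8.49, 8.90 and 8.83, against 7.91, 8.33 and 7.65 in primary MB. Its difference was 0.78 (SE 0.19, adjusted p = 0.0318), called in 12 of 23 alternatives. It was lost without P6 replicate 1 or 2 (adjusted p = 0.0644 each), MB replicate 1 or 3 (0.0851 and 0.0802), SMB21 parental 1 (0.0771), SMB55 parental 2 (0.0522) or SMB56 parental 2 (0.132), and with centred or quantile normalized arrays (0.0805 and 0.0954). Spry2 did not pass (-0.80, interval -1.38 to -0.22, adjusted p = 0.0594), while Dusp6 differed by -0.30 (interval -0.81 to 0.21).

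Parental SMB cells against P6 cerebellum called Spry2 alone of 7, against 14.6% of all genes higher and 11% lower (25.6% in all). Its line means were 9.42, 8.98 and 8.65 in SMB21, SMB55 and SMB56, against 10.14 and 9.96 in P6 cerebellum, a difference of -1.04 (SE 0.27, adjusted p = 0.0328). The other Spry2 probe set, 1421656_at, went the other way, at 0.32 (adjusted p = 0.0445 over 22690 probe sets). The call was lost without P6 replicate 1 (adjusted p = 0.179) or 2 (0.128), with line as a random block (-0.98, 0.0534) and with the mean over probe sets (-0.36, 0.123). With the random block Spred2 was called instead (0.40, adjusted p = 0.0367), as it was without MB replicate 2 (0.39, 0.0288).

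Over the 12 groups, the 6 RAS and GF means ranked above all parental and tissue means for Dusp6, Spry1, Spry4 and Spred1, and not for Dusp1, Spry2 and Spred2. The share of all genes with this order was not counted, so the order describes the members and cannot be called particular to them. For Dusp6 the 6 RAS and GF group means ran from 14.04 in SMB55 RAS to 12.19 in SMB21 GF cells, and a gap of 1.12, beyond the pooled within-group SD of 0.40, separated them from the next, 11.07 in SMB21 parental cells. From there to 10.30 in SMB56 parental cells no neighbours differed by more than that SD. For Spred1 the largest gap, 0.45 (SD 0.22), lay between the adult cerebellum (11.47) and SMB21 parental cells (11.02). Its break below the 6 treated groups, above the adult cerebellum, was 0.30. Spry1 and Spry4 had their break below the 6 treated groups, of 1.27 (SD 0.49) and 0.65 (SD 0.41). For Dusp1 no such break was seen: SMB56 GF cells were lowest at 9.42 and SMB55 RAS cells highest at 11.60, with the tissues in between. For Spry2 the 3 GF means led, with a gap of 0.75 (SD 0.41) to SMB21 RAS cells at 10.61, and the adult (10.48) and P6 cerebella (10.05) ranked above SMB55 RAS cells (9.98). Primary MB had the group mean of rank 3 for Spred2, at 11.60 ± 0.27 (SD, n = 3), below SMB55 RAS and SMB56 GF cells.

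The probe sets not kept gave partly different values. The second Spred2 probe set, 1423001_at, averaged 6.79 over all arrays, against 11.21 for the one reported, and differed by -0.11 with RAS (adjusted p = 0.373), 0.14 with GF (0.579) and 0.35 in primary MB against P6 cerebellum (0.0935). The Spred2 results thus rest on 1434403_at. For Spred1, 1423161_s_at gave 0.96 with RAS and 1.03 with GF, while 1423162_s_at gave 0.40 (adjusted p = 0.0489) and 1.47 (0.000814) and was lower in RAS than in GF cells by -1.06 (0.00552). The second Spry2 probe set also differed most with GF (1.84, adjusted p = 0.00242), less with RAS (0.79, 0.0141), and by -1.05 between RAS and GF cells (0.0346). In tissue, Spry2 1421656_at was called in primary MB against P6 cerebellum (0.42, adjusted p = 0.0381, against -0.23 for the reported probe set), in primary MB against adult (-0.49, 0.0203) and in adult against P6 cerebellum (0.91, 0.00368). Spred1 1423162_s_at was called in adult against P6 cerebellum (1.09, adjusted p = 0.0298) and in primary MB against adult (-0.97, 0.0243). Spred1 1423161_s_at was called in primary MB against adult (-0.62, adjusted p = 0.0182) and in parental SMB cells against primary MB (0.40, 0.0355). The second Spry4 probe set, 1422020_at, gave 0.71 with RAS (adjusted p = 0.00684) and 0.57 with GF (0.157). Dusp6, Dusp1 and Spry1 have 1 probe set each.

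Other genes of the pathway were counted from lists chosen by function, with earlier results of these data known. The counts are a description and not an independent test. Their counts stand beside 14.1% of all genes called higher and 17.9% lower with RAS (32.1% in all), and 8.95% called with GF. Of 10 other dual specificity phosphatases 9 were measured; with RAS 5 rose and 1 fell, with a median of 0.73. Dusp2, a nuclear ERK phosphatase of immune cells, rose by 3.79 (SE 0.47, adjusted p = 4.14e-05), Dusp22 by 1.17 (8.87e-05), the cytoplasmic ERK phosphatase Dusp7 by 1.39 (0.000772) and Dusp10, which acts on stress kinases, by 1.65 (0.0065). With GF 0 of the 9 rose and 1 fell, Dusp8 (-0.77, adjusted p = 0.0252). Dusp2 was also higher in RAS than in GF cells, by 3.81 (SE 0.63, adjusted p = 0.00289).

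Of 16 other feedback inhibitors of receptors and RAS 12 were measured, with 7 higher and 0 lower with RAS and a median of 0.79. Errfi1, which binds and blocks EGF receptors, rose by 2.50 (SE 0.21, adjusted p = 1.94e-06), Lrig1, which lowers receptor levels, by 1.94 (5.82e-05), Trib1 by 2.34 (6.46e-05) and the adaptor Dok1 by 1.77 (0.000141). With GF 1 rose, Lrig1, by 3.33 (SE 0.33, adjusted p = 6.5e-05), and the median was 0.41. Between RAS and GF cells Errfi1 was higher (2.12, adjusted p = 0.000812) and Lrig1 lower (-1.40, 0.0173) with RAS.

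Of 19 ERK-induced transcription factors and early genes 18 were measured; 13 rose and 0 fell with RAS, with a median of 2.08, and 6 rose and 0 fell with GF, with a median of 0.89. Phlda1 rose by 2.97 with RAS and 2.18 with GF, and the early factor Egr1 by 3.18 and 1.76. Etv4, an ETS factor downstream of FGF signalling, rose by 2.48 with RAS and 2.22 with GF. Of 21 genes of the RAS to ERK core 14 were measured, with 4 higher with RAS (Rras 1.69, Map2k1 0.99, Shc1 0.94, Ksr1 0.77) and medians of 0.02 with RAS and 0.03 with GF. The 4 of 14 called with RAS is near the 32.1% of all genes. Hras was not analysed here, and Nras differed by -0.39 with RAS (adjusted p = 0.121) and -0.23 with GF (0.656). Of 8 EGF and FGF receptors 3 rose with RAS (Fgfr1 1.06, Erbb2 1.19 and Erbb3 2.47) and Fgfr2 fell by 1.57, while with GF Fgfr1 (0.91), Egfr (0.88) and Erbb2 (1.06) rose.

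**Figure D5:**
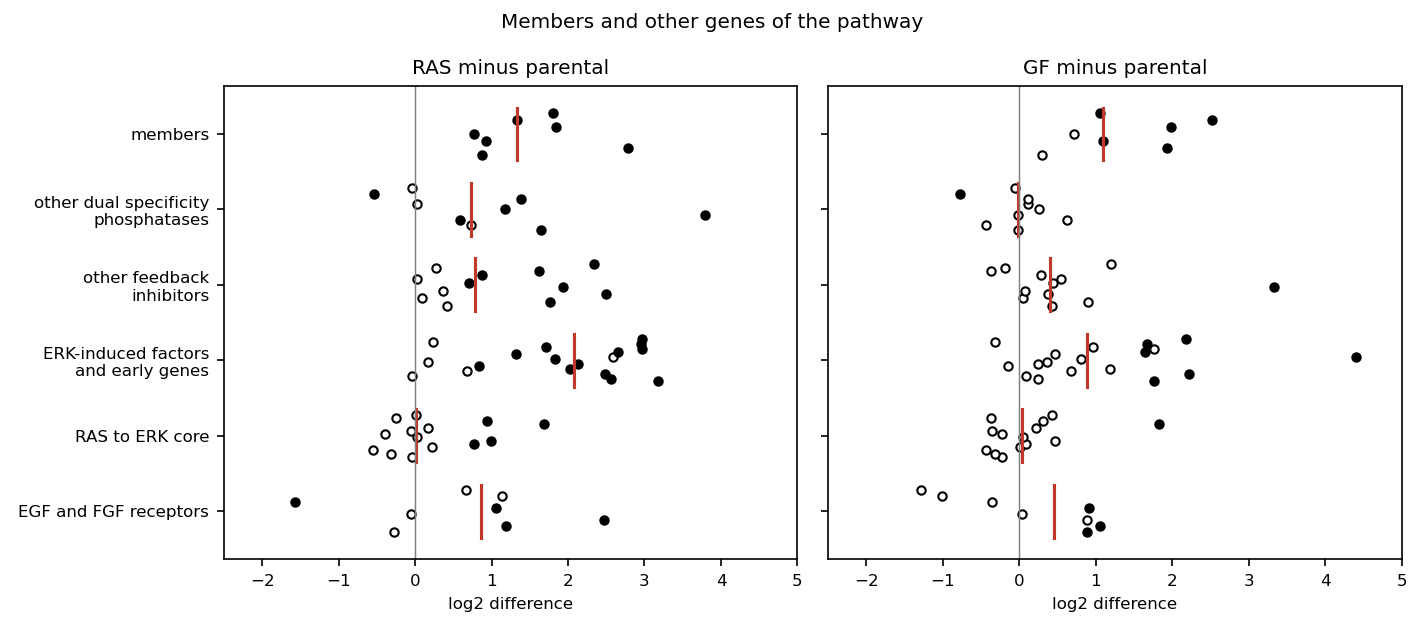
Log2 difference from parental cells of each measured gene of the members and of 5 pathway lists, for RAS (left) and GF (right), from the fit with line as a term. Filled points have an adjusted p under 0.05 and red bars mark the list medians, which are 1.33 and 1.09 for the members and 2.08 and 0.89 for the ERK-induced factors.

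Across the 18 culture arrays, taken as deviations from the mean of their line, all 21 pairs of members correlated above 0. Pearson's r ran from 0.157 for Dusp1 with Spry2 through a median of 0.739 to 0.933 for Dusp6 with Spry4. The arrays share the 3 treatments and the points are not independent, so these are a description with no test. Over the same arrays the genes most like Dusp6 were Shisa5 (r = 0.969), Fth1 (0.964) and Phlda1 (0.961), and those most like Spry4 were Plk2 (0.954), Cd93 (0.947) and Dusp6. Spry1 was most like Tmem176b (0.957), Tmem176a (0.954) and Etv4 (0.951), and Spry2 most like Crot (0.947), Lrig1 (0.913) and Chst2 (0.904). Spred1 was nearest to Emp2 (0.951), Tnc (0.941) and Tnfaip6 (0.940), Spred2 to Sertad2 (0.926), Sntb2 (0.925) and Alpl (0.925), and Dusp1 to Ugcg (0.925), Akap2 (0.913) and Per1 (0.875).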

How the data were processed

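Total RNA of 24 mouse samples was biotin labelled and hybridized to Affymetrix arrays, per the labels. The values deposited by the authors are linear intensities, 1 for each probe set on each array. The summary method and the normalisation are not given in the sources used here. Arrays have no read depth, so their number and the signal over background limit the precision. Groups came from the titles; for P6 replicate 2 the age label conflicts with its title, which was followed.

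Of 22690 probe sets, 20393 carry 1 gene symbol and 691 several, and 20364 matched the gene table of GRCm38.p6 by gene identifier. Intensities were used as log2(intensity + 16), with the probe set of highest mean per gene. Tests used limma 3.58.1 under R 4.3.3 (lmFit, eBayes, two-sided, Benjamini-Hochberg over 12394 genes). The tissue fit held 2 P6 cerebella, 1 adult cerebellum, 3 primary MB and 3 parental line means. The culture fit held 18 arrays with treatment and line, and the by-line fit 9 means. Fits were tested on simulated data. Where replicates are not known to be separate cultures, p-values measure only the spread between these arrays. No 2 arrays correlated above 0.9967, and none were merged.

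The members, pathway lists and tests were chosen with earlier results of these data known. All members were named, up to 4 called genes of each pathway list by smallest adjusted p in the RAS and then the GF comparison, Hras and Nras, and the 3 genes most correlated with each member. Genes named beyond this rule were chosen after their values were seen. Replicate numbers in the titles were checked for pairing as correlated deviations. GF array 1 correlated with parental array 1 at 0.216 (SMB21), 0.339 (SMB55) and 0.104 (SMB56). A shared line alone can raise these values, so they cannot show whether the numbers pair the samples. RAS with parental (-0.154 to -0.020), RAS with GF (0.018 to 0.204) and MB with P6 pairs (-0.028 and 0.005) did not all exceed 0.1. The line was removed for RAS with parental and left in for both GF checks, so these values are not comparable. Alternatives changed the pseudocount, scaling, filter, variance prior, probe set rule, block and arrays or lines used.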

Additional observations from a re-analysis of the deposited data

Results flagged for a closer look

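Of 21 groups of 4 to 10 arrays examined for the members, 2 held an array far from the rest; chance gives about 1 in 20. Spry1 on SMB21 parental replicate 1 was at 9.21, against 8.33 for the next of the 4 SMB21 parental arrays. Spred1 on SMB21 RAS replicate 3 was at 12.42, against 11.92 for the next of the 7 RAS arrays. The RAS difference of Spred2 varied between lines in the F test (adjusted p = 0.044), all 3 lines being higher with RAS. The GF difference of Dusp1 was positive in SMB21 and negative in SMB55 and SMB56, and the test of the difference between lines did not pass (adjusted p = 0.0987), with 1 GF array per line.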

How the results depend on the processing

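Leaving out 1 array at a time left 6 to 7 members called with RAS, 4 to 6 with GF, 0 to 2 between RAS and GF, 0 to 1 for primary MB against P6, 0 to 2 against adult, 0 to 2 for adult against P6, 1 to 2 for parental SMB against MB and 0 to 2 against P6. Within lines it left 4 to 6, 3 to 4 and 1 to 6 with RAS and 1 to 4, 0 to 1 and 3 to 4 with GF in SMB21, SMB55 and SMB56, and 0 to 1 in each F test by line. Over all genes, leaving out 1 array gave 3425 to 4124 calls with RAS, against 3974. With GF it gave 401 to 1190, against 1109, and between RAS and GF 457 to 1659, against 1383. In the tissue and within-line comparisons the calls over all genes moved too. A changed member count is therefore not shown to be particular to the members. In the GF comparison, 1 mean per line and treatment gave 0 members and 19 genes. With RAS that setting gave 667 genes, against 3974. RAS against GF had 0 members under the replicate block (161 genes, against 1383; Spry2 -1.10, adjusted p = 0.141) and under 1 mean per line (53 genes). Under the replicate block primary MB against P6 had 0 members and 415 genes, against 1361 (Spred2 1.13, adjusted p = 0.0783). That block gave 4 members and 243 genes with GF, and 6 members and 3175 genes with RAS (Dusp1 0.89, adjusted p = 0.0736). Whether the replicate numbers pair the samples is not known. Besides these calls of Spry2, Spred2 and Dusp1, and Spry4 with GF, the block ended no member call. Crossing the SMB55 RAS numbers, an alternative chosen after seeing the data, gave 6, 4 and 0 members and 3293, 363 and 158 genes for RAS, GF and RAS against GF. With parental arrays under a random line block, MB against adult had 2 members and parental SMB against MB 1; only 2 groups in the fit gave 1 for the latter comparison, with 1686 genes, and 898 genes for RAS against GF. The random block gave 896 genes for MB against P6. Adult against P6 had 1 member with pseudocount 64 or the mean over probe sets, parental SMB against P6 had 0 with that mean, and GF within SMB55 had 1 with a trended robust prior. The F test of RAS by line had 0 members with pseudocount 1, centring, quantile normalization, the trended prior and the mean over probe sets. The cause of these changes was not tested.

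Signs turned in uncalled values. With centred arrays these were Dusp6 (0.09 for MB against P6, 0.07 against adult, 0.02 for adult against P6), Spred1 (0.10 for MB against P6, -0.08 for parental SMB against MB), Spry4 (-0.19 for parental SMB against MB) and Spred2 (-0.02 for RAS against GF). The mean over probe sets turned Spry2 (0.09, MB against P6), Spry4 (-0.09 and -0.03, parental SMB against MB and P6) and Spred2 (-0.09, RAS against GF). Quantile normalization (-0.002) and the block (-0.0004) turned Spry4 in MB against P6, and the 3 cerebella as 1 group turned Spred1 (-0.13, parental SMB). Lines left out turned Dusp1 with GF (-0.60 without SMB21), Spry1 (0.07 without SMB21) and Spred2 (-0.35 without SMB55) in RAS against GF. Leaving out 1 array turned signs within these ranges: Spry4 -0.05 to 0.17, Spred1 -0.26 to 0.12 (MB against P6), Dusp6 -0.23 to 0.0036 (MB against adult) and -0.04 to 0.02 (adult against P6), Spry4 -0.11 to 0.12 (parental SMB against MB), Spred1 -0.13 to 0.25 (parental SMB against P6), Dusp1 -0.60 to 0.77 (GF), Spry1 -0.35 to 0.10 and Spred2 -0.22 to 0.33 (RAS against GF).

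Centring moved all genes by 0.17 in MB against P6, 0.15 against adult, -0.21 in parental SMB against MB, -0.08 with RAS and -0.09 in RAS against GF. The higher and lower calls were then 989 and 616, against 533 and 828, for MB against P6, 834 and 2032, against 1538 and 1015, for parental SMB against MB, 1506 and 2953, against 1750 and 2224, with RAS, and 547 and 981, against 707 and 676, for RAS against GF. Spry4 lies too near the floor in tissue for small differences to be measured.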
